A study of Saccharomyces cerevisiae with 6 samples.

Results

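The mitochondrial ribosome translates the few proteins encoded in the mitochondrial DNA of Saccharomyces cerevisiae, nearly all of them membrane subunits of the respiratory chain and of ATP synthase. With the exception of Var1, its proteins are encoded in the nucleus, translated in the cytosol and imported into the organelle. Many of them have a counterpart in bacterial ribosomes, and others are found only in mitochondria, where they cover the rRNA, shape the polypeptide exit tunnel or hold the ribosome near the inner membrane. The transcripts of many of these genes are bound by the RNA-binding protein Puf3.

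The genes described here are those whose symbol in the array's probe annotation is MRPL, MRPS or RSM followed by a number. The rule uses no measured value, but it was chosen with earlier results of these data known. They are 54 of the 5449 S. cerevisiae genes tested, 34 of the large subunit (MRPL) and 20 of the small subunit (MRPS and RSM). Each has 1 probe set, so that no choice between probe sets was needed.

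Affymetrix arrays were hybridised with RNA of 3 wild-type and 3 pmr1 deletion samples. PMR1 encodes the calcium and manganese pump of the Golgi. The wild type carried MAT a ura3Δ0 leu2Δ0 his3Δ0 met15Δ0, and its background is written BY4147. The deletion strain is NGY051, in which a kan marker replaces PMR1, and its labels name both BY4147 and BY4741 and no mating type. Both strains grew exponentially in YPAD, a rich glucose medium, with 5 mM CaCl2 added, so that the calcium salt is common to both groups and there is no group without it. The labels name a single strain per genotype and do not say whether replicates came from separate cultures, so the p-values measure no more than the spread among the samples given, and this may be technical. Values are log2 levels after RMA, the background correction, scaling and probe summary used by the authors. In RNA of whole cultures, a lower level in every cell and fewer cells with the transcript cannot be told apart.

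PMR1 checked the labels: wild-type arrays gave 11.81 ± 0.021 (SD, n = 3) for this gene and deletion arrays 3.13 ± 0.33 (SD, n = 3), which is below array background. That background was set at the percentile 95 of fission yeast (S. pombe) probe sets, 4.18 to 4.31 by array. Median levels of the arrays were within 10.34 to 10.39. Of 7 genes specific to a cells, 5 were lower and 1 higher in the deletion, and the log2 of their summed level was 15.13 to 15.18 on the wild-type and 14.67 to 14.74 on the deletion arrays. Of 4 genes specific to alpha cells, 3 were higher and 0 lower, a count of 3 that was 1 in 5 of 16 alternative settings (all probe sets, and without wild-type replicate 1 or 3 or deletion replicate 2 or 3), and their summed level was 9.46 to 9.59 against 9.73 to 9.84. The alpha-factor gene MF(ALPHA)1 stayed below array background in both groups, at 3.60 and 3.65, while the receptor gene STE3 was above it, at 7.40 and 7.96. The part of these marker genes in the results below was not tested.

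Transcripts of the mitochondrial ribosome were slightly but broadly lower in the pmr1 deletion. Of the 54 genes, 39 (72.2%) fell at an adjusted p under 0.05 (limma, Benjamini-Hochberg over all probe sets tested) and 0 rose. Of all 5498 probe sets tested, 11.7% were lower and 17.5% higher by the same rule. The median change was -0.22 on the log2 scale, which is a level 14.2% lower, against 0.01 over all genes. Of all genes, 9.18% had a change at or below -0.22. Changes of the 54 genes ran from -0.41 in MRPL20 to 0.11 in RSM10, and 52 of them were below 0.

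The groups of arrays were separate for most of the genes. In 47 of 54 (87.0%) every deletion array was below every wild-type array, compared with 19.3% of all probe sets tested. In 1, RSM10, every deletion array was above every wild-type array, compared with 27.4% of all probe sets. In the other 6, MRPL4, MRPL22, MRPL36, RSM19, RSM22 and MRPS35, the groups overlapped. Standard errors of the 54 changes were 0.036 to 0.080. The smallest fall past the threshold was -0.16, and the adjusted p-values of the 39 genes that fell were between 0.00216 and 0.0478 (limma). Of the 15 genes not past the threshold, 9 had an adjusted p between 0.05 and 0.1. RSM10, with a change above 0, is among these 9.

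**Figure D1:**
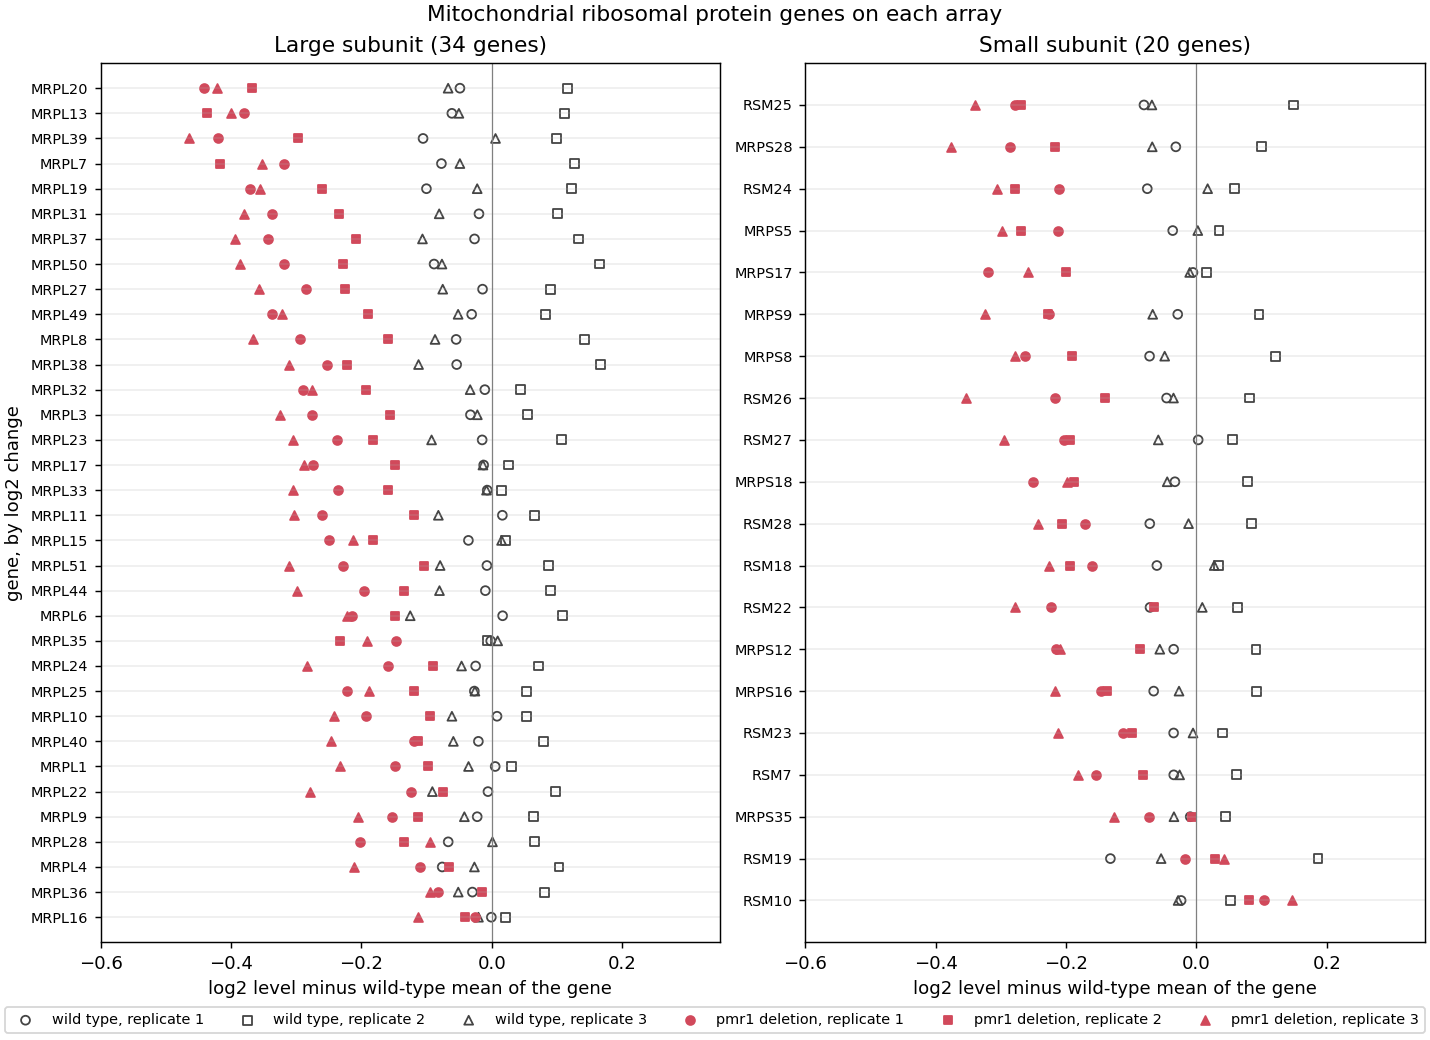
Log2 level of each gene on each of the 6 arrays, minus the mean of that gene over the 3 wild-type arrays (x axis, log2 units), for the 34 large subunit genes (left) and the 20 small subunit genes (right), ordered by change. Open symbols are wild-type arrays and filled symbols deletion arrays, with shape for the replicate number: the filled symbols lie to the left of the open ones in 47 of 54 genes, and the open square of wild-type replicate 2 is the highest wild-type value in 53.

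The plot of all genes by array shows a common shift more than a few strong responders, with the wild-type array of replicate 2 to the right. The large subunit opens with MRPL20, a protein without a bacterial counterpart, which read 10.38, 10.54 and 10.36 on the wild-type arrays and 9.98, 10.06 and 10.004 on the deletion arrays of replicates 1, 2 and 3. Its groups were apart by more than the spread within either, and it fell by 0.41 (SE 0.056, adjusted p = 0.00244, limma). MRPL39, the counterpart of bacterial bL33, read 11.10, 11.31 and 11.21 in the wild type and 10.79, 10.91 and 10.74 in the deletion. Its change was -0.39 (SE 0.066, adjusted p = 0.00551, limma), with no overlap between the groups. MRPL7, the counterpart of uL5 in the central protuberance that touches the tRNAs, read 10.69, 10.89 and 10.72 in the wild type and 10.45, 10.35 and 10.42 in the deletion. It fell by 0.36 (SE 0.061, adjusted p = 0.00552, limma). MRPL31 and MRPL37, which have no bacterial counterpart, and MRPL50, the counterpart of bL9, fell by 0.32, 0.32 and 0.31. All 3 had separate groups of arrays. MRPL37 and MRPL50 were no longer past the threshold without deletion replicate 1 or without deletion replicate 3, at adjusted p-values (limma) of 0.0683 and 0.0643 for MRPL37 and 0.0735 and 0.0769 for MRPL50.

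Around the exit tunnel, where nascent membrane proteins leave the ribosome, 5 proteins chosen for their position were examined, and MRPL13 and MRP20 fell. MRPL13, a mitochondrial protein near the tunnel exit, read 11.15, 11.33 and 11.16 in the wild type and 10.83, 10.78 and 10.81 in the deletion. Its fall of 0.41 (SE 0.053, adjusted p = 0.00216, limma) came with the smallest adjusted p among the 54 genes. MRPL22, the counterpart of uL22 that lines the tunnel wall, had a change of -0.16 (95% interval -0.32 to 0.00, adjusted p = 0.127, limma) and overlapping arrays. It was called lower in 1 of 16 alternative settings. MRPL4, the counterpart of uL29, read 9.93, 10.11 and 9.98 in the wild type and 9.90, 9.94 and 9.79 in the deletion. These groups overlap, and its change of -0.13 did not pass the test (adjusted p = 0.152, limma). MRPL40, the counterpart of uL24, had a change of -0.16 (adjusted p = 0.0662, limma) with separate arrays, and 5 of 16 alternative settings called it lower. MRP20, the counterpart of uL23 at the same exit and a ribosomal protein whose symbol lies outside the name rule, fell by 0.15 (SE 0.042, adjusted p = 0.0355, limma), a call that 7 of 16 alternative settings ended.

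The stalk, which recruits the GTP-hydrolysing translation factors, was lower in each of its measured parts. MRPL19, the counterpart of uL11 at the stalk base, read 10.16, 10.38 and 10.24 in the wild type and 9.89, 9.999 and 9.90 in the deletion. It fell by 0.33 (SE 0.064, adjusted p = 0.0094, limma), with every deletion array below every wild-type array. MRPL11, the counterpart of uL10 that carries the stalk, fell by 0.23 (SE 0.061, adjusted p = 0.0319, limma), a call that 5 of 16 alternative settings ended. MNP1, the counterpart of the flexible stalk protein of bacteria, lies outside the name rule and fell by 0.28 (SE 0.051, adjusted p = 0.00762, limma).

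Near the peptidyl transferase centre, where peptide bonds form, the values were mixed. MRPL16, the counterpart of uL16, read 11.05, 11.08 and 11.03 in the wild type and 11.03, 11.01 and 10.94 in the deletion. The groups barely separate, and the change of -0.06 (95% interval -0.15 to 0.03, adjusted p = 0.278, limma) did not pass the test and is the smallest of the large subunit. MRPL10, the counterpart of uL15, fell by 0.18 (SE 0.051, adjusted p = 0.0403, limma), a call that 5 of 16 alternative settings ended. MRP7, the counterpart of bL27 and outside the name rule, fell by 0.25 (SE 0.049, adjusted p = 0.011, limma). RML2, the counterpart of uL2 and likewise outside the rule, had a change of -0.12 (adjusted p = 0.0889, limma). It was called lower in 4 of 16 alternative settings. MRPL32, whose processing by the inner-membrane m-AAA protease is known to be needed for ribosome assembly, read 11.15, 11.20 and 11.12 in the wild type and 10.87, 10.96 and 10.88 in the deletion. It fell by 0.25 (SE 0.042, adjusted p = 0.00513, limma), with clearly separate groups.

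In the large subunit as a whole, 26 of 34 genes (76.5%) fell and 0 rose, against 11.7% and 17.5% of all probe sets. All 34 changes were below 0. The median change was -0.23, or 14.8% lower, with quartiles of -0.29 and -0.18. Every deletion array was below every wild-type array in 31 of the 34 (91.2%), against 19.3% of all probe sets. Besides MRPL4, MRPL16, MRPL22 and MRPL40, the genes not past the threshold were MRPL6 (-0.19, adjusted p = 0.0551, limma), MRPL24 (-0.18, adjusted p = 0.0619), MRPL28 (-0.14, adjusted p = 0.0619) and MRPL36 (-0.06, adjusted p = 0.352). Of 16 alternative settings, 7 called MRPL6 lower, 7 MRPL24, 4 MRPL28 and 0 MRPL36. MRPL28 and MRPL36 are named here because so few genes were left, after their values were seen.

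**Figure D2:**
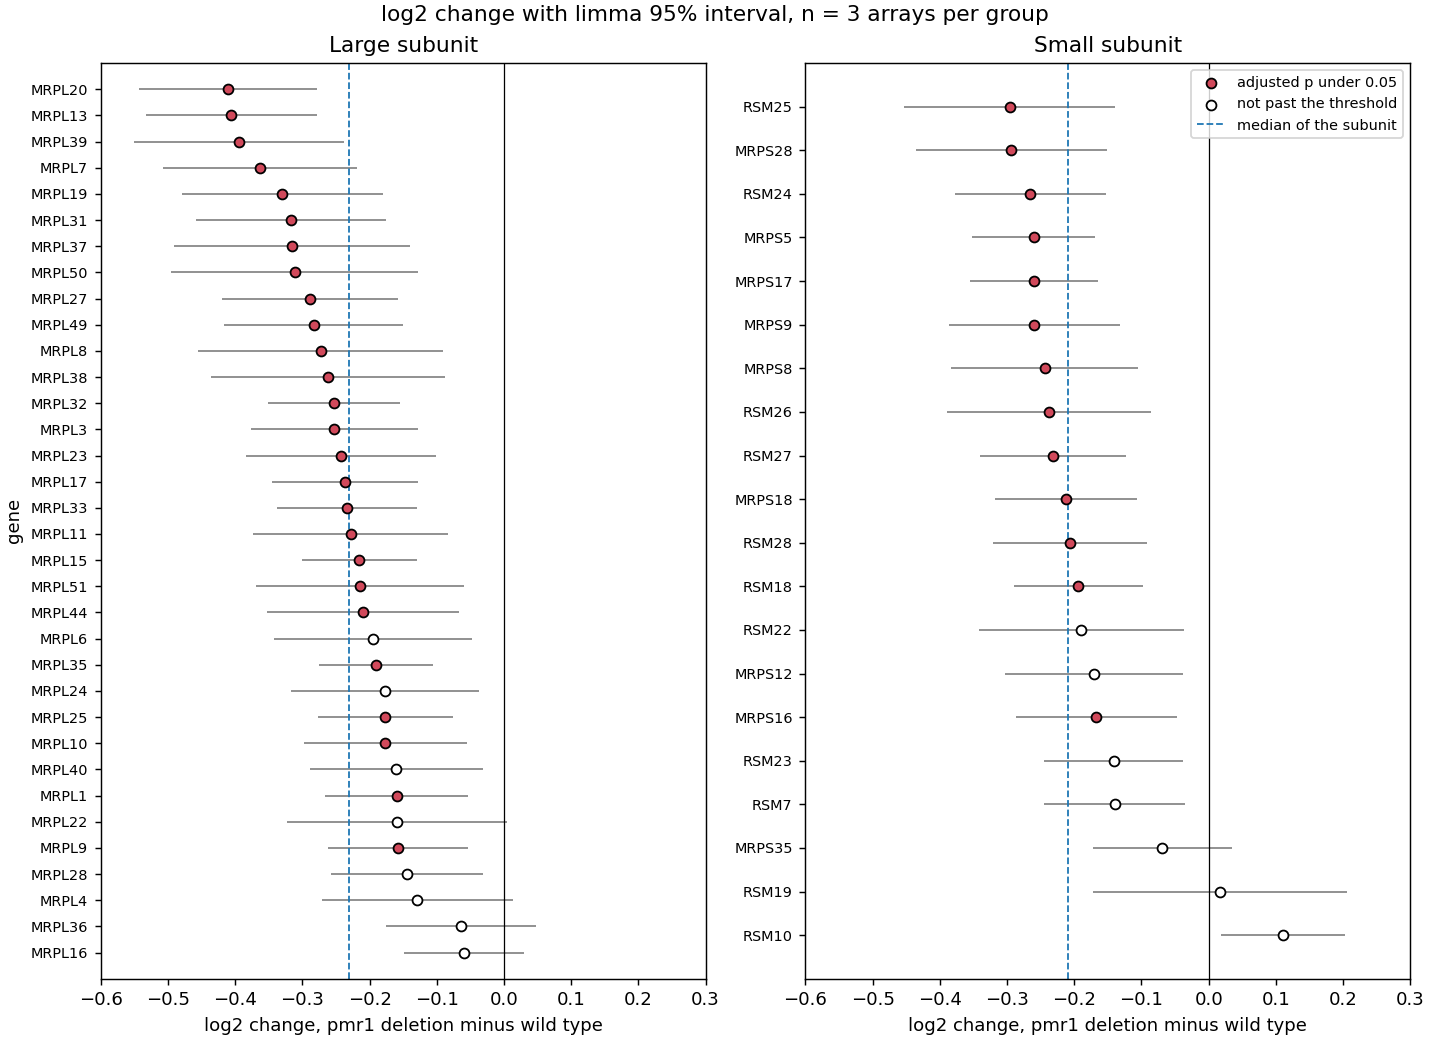
Log2 change of each gene, pmr1 deletion minus wild type (x axis), with its 95% interval from limma (horizontal lines, n = 3 arrays per group), for the large (left) and small (right) subunit. Filled points are the 26 large and 13 small subunit genes with an adjusted p under 0.05, open points the other 15, and the dashed lines the subunit medians of -0.23 and -0.21.

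The small subunit decodes the mRNA. Of its 20 genes 13 (65%) fell and 0 rose, against 11.7% and 17.5% of all probe sets. In 18 the change was below 0, and the median was -0.21, or 13.5% lower, with quartiles of -0.26 and -0.16. The plot of changes with their intervals shows the small subunit from -0.30 in RSM25 to 0.11 in RSM10 and the large subunit from -0.41 in MRPL20 to -0.06 in MRPL16. RSM19 and RSM10 are the 2 genes with a change above 0.

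The small subunit genes with the largest falls include proteins with and without a bacterial counterpart. RSM25, a protein without a bacterial counterpart, read 9.73, 9.96 and 9.74 in the wild type and 9.53, 9.54 and 9.47 in the deletion. Its change was -0.30 (SE 0.066, adjusted p = 0.0166, limma), and without deletion replicate 1 or 3 its adjusted p was 0.0512 or 0.056 (limma). MRPS28, the counterpart of uS15, read 10.58, 10.71 and 10.54 in the wild type and 10.32, 10.39 and 10.23 in the deletion, and fell by 0.29 (SE 0.060, adjusted p = 0.0121, limma). In both genes the wild-type array of replicate 2 was the highest of the 6. RSM24, without a bacterial counterpart, fell by 0.27 (SE 0.048, adjusted p = 0.00703, limma). MRPS17, the counterpart of uS17, had wild-type values of 11.10, 11.13 and 11.10 and deletion values of 10.79, 10.91 and 10.85. This narrow wild-type spread went with an adjusted p of 0.0041 (limma) for a fall of 0.26. MRPS9, the counterpart of uS9, and MRPS8, the counterpart of uS8, fell by 0.26 and 0.24 with separate arrays. The call of MRPS8 was lost without deletion replicate 1 (adjusted p = 0.0734, limma) and without deletion replicate 3 (adjusted p = 0.0693).

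Of the proteins tied to accurate decoding, MRPS5, the counterpart of uS5, read 10.01, 10.08 and 10.05 in the wild type and 9.83, 9.77 and 9.75 in the deletion. It fell by 0.26 (SE 0.039, adjusted p = 0.00348, limma), the smallest adjusted p of the small subunit. MRPS12, the counterpart of uS12 that takes part in decoding, read 11.81, 11.94 and 11.79 in the wild type and 11.63, 11.76 and 11.64 in the deletion. Its arrays do not overlap, but the change of -0.17 did not pass the test (SE 0.056, adjusted p = 0.0591, limma). In 7 of 16 alternative settings it did. NAM9, the counterpart of uS4 and outside the name rule, fell by 0.18 (SE 0.038, adjusted p = 0.0136, limma). Without deletion replicate 1 or 3 its adjusted p was 0.0519 or 0.0507 (limma).

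RSM23, a GTP-binding protein and the counterpart of human DAP3, had a change of -0.14 (SE 0.044) at an adjusted p of 0.0502 (limma) with separate arrays. It was called lower in 8 of 16 alternative settings. RSM26, which has the fold of superoxide dismutases, fell by 0.24 (SE 0.064, adjusted p = 0.0322, limma), a call that 6 of 16 alternative settings ended. MRP1 has the same fold and lies outside the name rule. It fell by 0.21 (SE 0.063, adjusted p = 0.0478, limma), and 9 of 16 alternative settings ended that call. RSM22, related to methyltransferases, had values from 8.67 to 9.01, all above array background. Its change of -0.19 did not pass the test (SE 0.064, adjusted p = 0.0662, limma), and its groups overlapped on 1 array of each genotype. In 7 of 16 alternative settings RSM22 was called lower. MRP51, which acts with mitochondrial mRNA leaders, and PET123, a neighbour of the mRNA path, lie outside the rule. PET123 fell by 0.27 (SE 0.061, adjusted p = 0.017, limma), a call lost without deletion replicate 1 or 3 (adjusted p = 0.0581 and 0.0566). MRP51 had a change of -0.14 (adjusted p = 0.0781, limma) and was called lower in 5 of 16 alternative settings.

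A few genes of the small subunit stood away from this shift and are named after their values were seen. RSM10, the counterpart of uS10 in the head of the subunit, read 11.60, 11.67 and 11.59 in the wild type and 11.72, 11.70 and 11.77 in the deletion. Every deletion array was higher than every wild-type array, by a mean of 0.11 (95% interval 0.02 to 0.20), but the adjusted p of 0.0719 (limma) did not pass the threshold. RSM19, the counterpart of uS19 and also in the head, read 10.99, 11.30 and 11.06 in the wild type and 11.10, 11.15 and 11.16 in the deletion. The deletion arrays lie inside the wild-type range, and the change of 0.02 (95% interval -0.17 to 0.21, adjusted p = 0.894, limma) has no stable sign under other scalings. MRPS35, without a bacterial counterpart, had a change of -0.07 (95% interval -0.17 to 0.03, adjusted p = 0.28, limma). RSM19 and MRPS12 are direct neighbours in the gene table of assembly R64, the only such pair among the 54 genes, with changes of 0.02 and -0.17.

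The subunits were then set against each other. The median change of the large subunit was lower than that of the small by 0.02, with a coded difference of -0.02. On the 3 wild-type arrays, the median level of the large subunit minus that of the small, each gene centred on its mean over the 6 arrays, was 0.043, 0.0041 and -0.013. On the deletion arrays it was -0.045, 0.024 and -0.041. The groups overlap, with means of 0.012 ± 0.029 and -0.021 ± 0.039 (SD, n = 3), so a difference between the subunits was not detectable with 3 arrays a group. The share of genes that fell, 76.5% of the large and 65% of the small subunit, was above the 11.7% of all probe sets in both.

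A further division followed whether a protein has a bacterial counterpart. Its counts stand beside the 11.7% of all probe sets that were lower. In the large subunit 14 of 21 genes with a counterpart fell, with a median change of -0.23, and 12 of 13 without, with a median of -0.24. In the small subunit the counts were 8 of 12, with a median of -0.20, and 5 of 8, with a median of -0.22. The medians of the 4 classes thus lie within 0.04 of each other, and no test of the difference between classes was made.

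**Figure D3:**
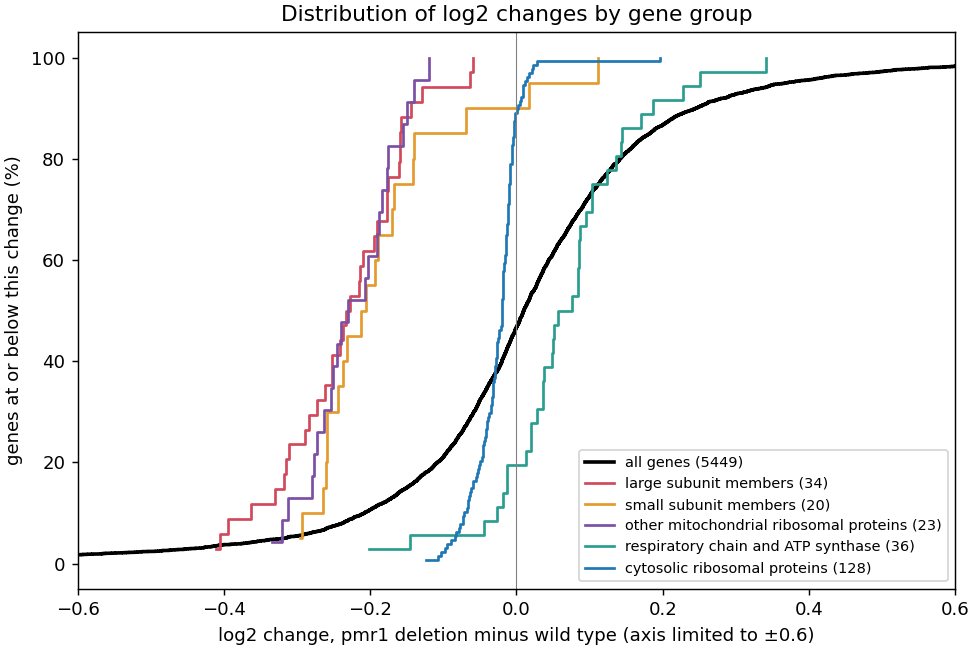
Cumulative share of genes (y axis, percent) at or below a given log2 change (x axis, pmr1 deletion minus wild type, limited to a window around 0) for the large and small subunit, the other mitochondrial ribosomal proteins, respiratory subunits, cytosolic ribosomal proteins (128 by name, RPP1 included) and all 5449 genes. The 3 curves of mitochondrial ribosomal proteins run together to the left of the curve of all genes, with medians of -0.23, -0.21 and -0.23 against 0.01.

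Mitochondrial ribosomal proteins whose symbols lie outside the name rule gave a second set of genes measured on the same arrays. Of 23 that were measured, 18 (78.3%) fell and 0 rose, against 11.7% and 17.5% of all probe sets. All 23 changes were below 0, and the median was -0.23. In 22 (95.7%) every deletion array was below every wild-type array, against 19.3% of all probe sets. By subunit, 9 of 11 large subunit genes fell, with a median of -0.25, and 9 of 12 small subunit genes, with a median of -0.20. MRP21, the counterpart of bS21, fell by 0.33 (SE 0.044, adjusted p = 0.00211, limma). MRP17, the counterpart of bS6, and MRP49, without a bacterial counterpart, fell by 0.31 and 0.32, and the call of MRP49 was lost without deletion replicate 1 (adjusted p = 0.0502, limma). MRX14, the counterpart of bL34, fell by 0.28, and its call was lost without deletion replicate 1 or 3 (adjusted p = 0.0819 and 0.0737, limma). Over the 77 measured genes of both kinds, 57 (74.0%) fell, 0 rose and the median change was -0.23. Changes ran from -0.33 to -0.12 in the 23 genes and from -0.41 to 0.11 in the 54.

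The arrays within a group were not alike for these genes. Each gene was centred on its mean over the 6 arrays, and the median over the 54 genes was taken for each array. It was 0.076, 0.18 and 0.064 on wild-type replicates 1, 2 and 3, and -0.12, -0.051 and -0.17 on the deletion replicates. All 3 deletion arrays lie below all 3 wild-type arrays, by a gap about as wide as the spread within either group. Wild-type replicate 2 was the highest wild-type array in 53 of the 54 genes (98.1%), and in 43.9% of all genes. Deletion replicate 2 was the highest deletion array in 42 (77.8%, and 58.5% of all genes), and deletion replicate 3 the lowest in 39 (72.2%, and 50.3% of all genes). The genes thus move together from array to array within a genotype, and their 54 values on an array are not 54 independent measurements.

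**Figure D4:**
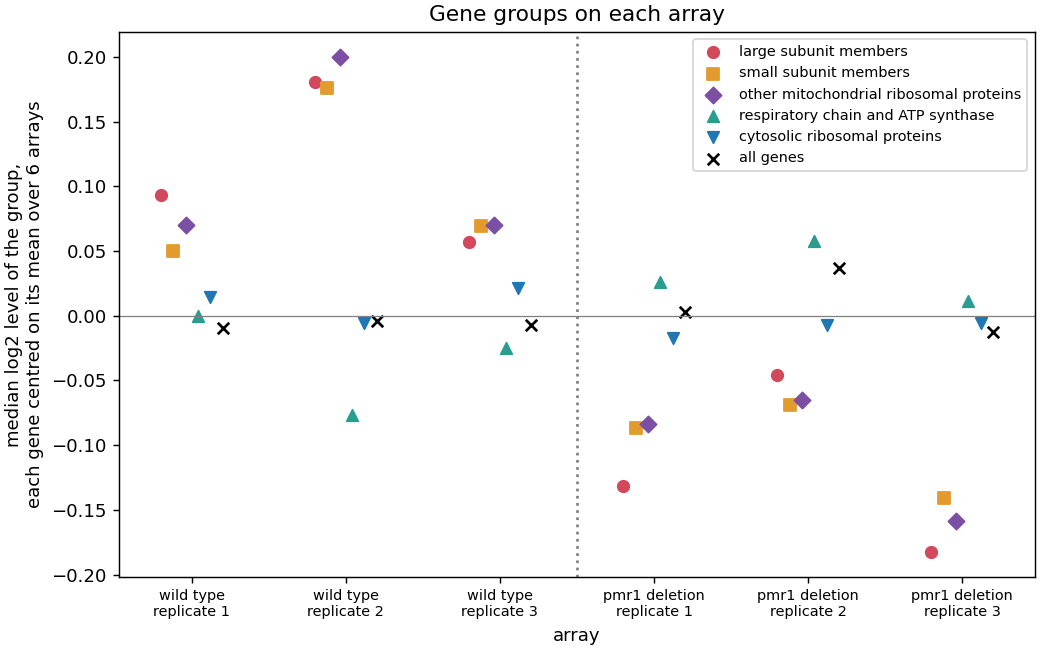
Median log2 level of 6 gene groups on each array, every gene centred on its mean over the 6 arrays (y axis, log2 units), with wild-type arrays left and deletion arrays right of the dotted line. The 3 groups of mitochondrial ribosomal proteins sit above 0 on all 3 wild-type arrays, highest on replicate 2, and below 0 on all 3 deletion arrays, while cytosolic ribosomal proteins and all genes stay near 0.

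Leaving out arrays lowered the count of calls in 5 of 6 cases. Without wild-type replicate 2, 30 of the 54 genes fell, against 11.4% of all probe sets, and the median change was -0.19. Without deletion replicate 1 the count was 21 (38.9%, against 6.78% of all probe sets), and without deletion replicate 3 it was 22 (40.7%, against 7.24%). With p-values adjusted over all 10928 probe sets of the array, S. pombe and control probe sets included, 16 genes (29.6%) fell, against 2.97% of those probe sets. The genes that fell under every 1 of 16 alternative settings were 16. In the large subunit they were MRPL20, MRPL13, MRPL39, MRPL7, MRPL19, MRPL31, MRPL27, MRPL49, MRPL32, MRPL17, MRPL33 and MRPL15. In the small subunit they were MRPS28, RSM24, MRPS5 and MRPS17.

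The factors that work with the mitochondrial ribosome were examined gene by gene. Of 15 mitochondrial translation factors 3 (20%) fell and 0 rose, against 11.7% and 17.5% of all probe sets, and the median change was -0.07. The 3 were RRF1, the ribosome recycling factor, which fell by 0.43 (SE 0.045, adjusted p = 0.000844, limma), IFM1, the initiation factor that brings the first tRNA, which fell by 0.33, and TUF1, the elongation factor that delivers tRNAs, which fell by 0.29. Of 19 genes of ribosome assembly and rRNA modification 6 (31.6%) fell, with a median over the list of -0.07. The 6 include RPM2, the protein subunit of mitochondrial RNase P, an enzyme of tRNA processing that the list takes in beyond its name. RPM2 fell by 0.55 (SE 0.10, adjusted p = 0.00662, limma). The matrix protein gene MAM33 fell by 0.41 and the RNA helicase gene MRH4, needed to assemble the large subunit, by 0.30.

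Other lists covered genes that act on single mitochondrial mRNAs or on the mitochondrial genome. Of 16 translational activators 3 (18.8%) fell, against 11.7% of all probe sets, with a median of -0.12. CBP6, which binds the exit tunnel and acts on cytochrome b, fell by 0.35 (SE 0.051, adjusted p = 0.00328, limma). MSS51 and PET494, which act on cytochrome oxidase mRNAs, fell by 0.16 each, with calls that 6 and 7 of 16 alternative settings ended. Of 13 mitochondrial aminoacyl-tRNA synthetases 2 (15.4%) fell (MSY1 by 0.22 and MSM1 by 0.17), with a median of -0.08, and 4 of 16 settings ended the call of MSM1. Of 13 genes of mitochondrial DNA maintenance and transcription 2 (15.4%) fell, with a median of -0.08: the RNA degradation factor DSS1 by 0.15, a call that 7 of 16 settings ended, and MHR1 by 0.26. These shares are near that of all probe sets. Without deletion replicate 1 or deletion replicate 3 the 3 lists had 1 gene lower each, and the last list also without wild-type replicate 1 or 2. MHR1 is also a protein of the large ribosomal subunit and is counted there too. None of 12 genes of the mitochondrial DNA has a named probe set here, so the transcripts that the ribosome translates were not analysed.

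**Figure D5:**
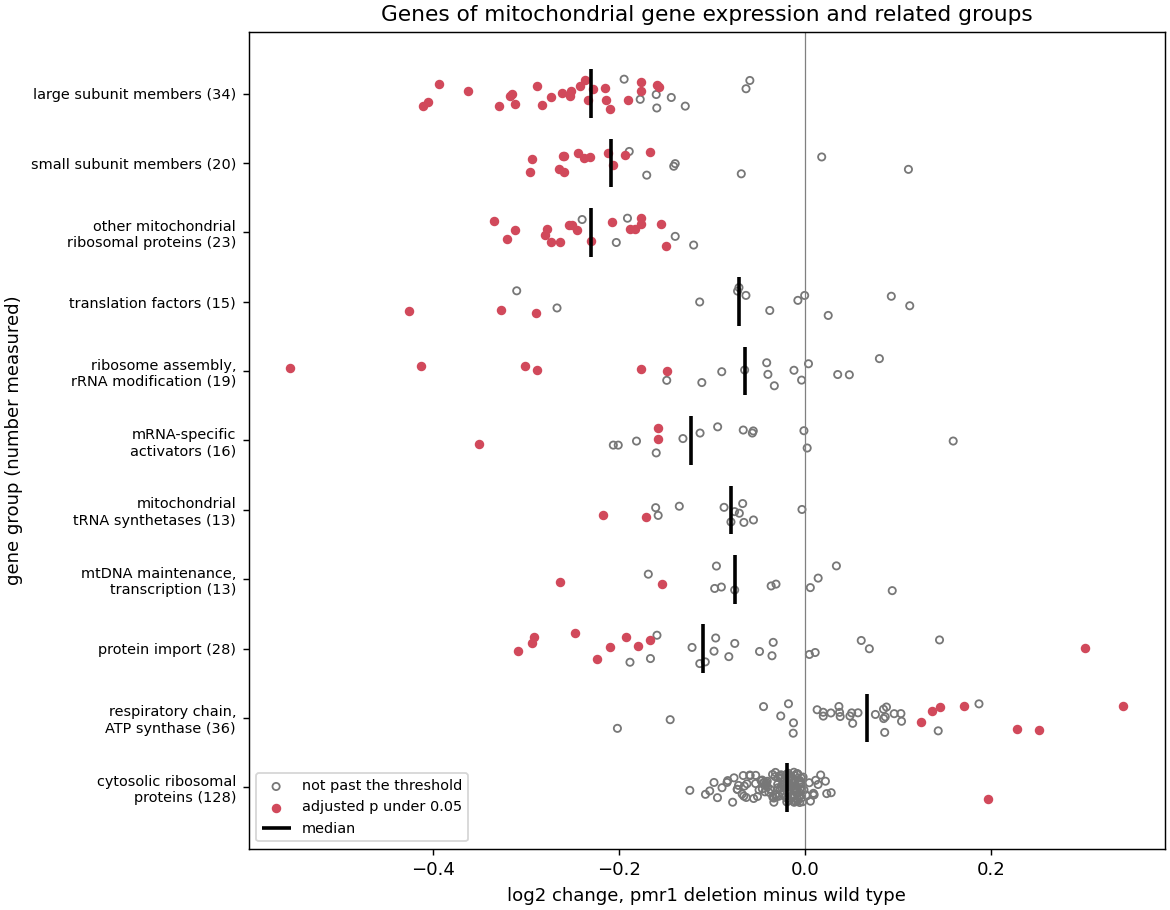
Log2 change of every gene (points; x axis, pmr1 deletion minus wild type) in 11 groups of genes (y axis), with filled points for an adjusted p under 0.05 and black bars for the median of the group. The 3 rows of mitochondrial ribosomal proteins have medians between -0.23 and -0.21, the other mitochondrial gene expression and import groups between -0.12 and -0.07, respiratory subunits 0.07 and cytosolic ribosomal proteins (128 by name, with RPP1 of RNase P among them) -0.02.

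Import, which brings these proteins into the organelle, had 9 of 28 genes (32.1%) lower and 1 higher, against 11.7% and 17.5% of all probe sets, with a median of -0.11. The count of 9 was 5 without deletion replicate 1, 4 without deletion replicate 3, and 3 to 15 over all 16 alternative settings. The partners PAM16 and PAM18 of the import motor fell by 0.31 and 0.29. PAM18 had an adjusted p of 0.00112 (limma), and the call of PAM16 was ended by 5 of 16 alternative settings. IMP2, a subunit of the inner membrane peptidase, rose by 0.30 (SE 0.059, adjusted p = 0.0105, limma). Nuclear genes for subunits of the respiratory chain and ATP synthase were counted in the same way. Some of their complexes also contain products of the mitochondrial ribosome, but succinate dehydrogenase and NDI1 do not. Of 36, 7 (19.4%) rose, 0 fell and 29 did not pass the test, with a median of 0.07 and 7 changes below 0. The share that rose is near the 17.5% of all probe sets, and the count was 3 to 10 over the alternative settings. Examples are NDI1, the internal NADH dehydrogenase, which rose by 0.34 (SE 0.056, adjusted p = 0.00505, limma), SDH4 of succinate dehydrogenase, which rose by 0.25, and QCR2 of the cytochrome bc1 complex, which rose by 0.23. On the arrays, the respiratory median was -0.00050, -0.077 and -0.025 in the wild type and 0.026, 0.058 and 0.011 in the deletion, so that it was lowest on wild-type replicate 2, where the ribosomal proteins were highest.

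Ribosomal proteins of the cytosol were taken by name (RPL, RPS or RPP with a number), 128 genes in all. That name rule also takes in RPP1, a subunit of nuclear RNase P and no ribosomal protein, whose change was 0.02 (adjusted p = 0.861, limma). Of the 127 genes without it, 0 fell and 1, RPL15B, rose by 0.20 (SE 0.056, adjusted p = 0.0376, limma), a call that 9 of 16 alternative settings ended, and their median change was -0.02. In these 127 genes, 25 (19.7%) had every deletion array below every wild-type array, near the 19.3% of all probe sets. Without RPP1 or with it, the counts of genes that fell and rose were the same. Array-wise medians of the 128 genes stayed between -0.017 and 0.022.

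Known regulators of mitochondrial gene expression and respiration had 2 of 16 genes (12.5%) lower and 4 (25%) higher, against 11.7% and 17.5% of all probe sets, with a median of -0.03. The count of 4 was 2 without wild-type replicate 1 and 1 without wild-type replicate 3 or deletion replicate 1 or 2. HAP4, the activating subunit of the factor that turns on respiratory genes, read 11.21, 10.94 and 10.997 in the wild type and 10.23, 10.44 and 9.93 in the deletion. It fell by 0.85 (SE 0.13, adjusted p = 0.0041, limma), a larger change than that of any of the 54 ribosomal protein genes. MIG1, a repressor active in glucose, fell by 0.60 (SE 0.077, adjusted p = 0.00194, limma). CAT8, an activator of genes for growth without glucose, rose by 0.35 (adjusted p = 0.0309, limma), a call that 5 of 16 alternative settings ended. PUF3, whose product binds many mRNAs of mitochondrial ribosomal proteins, had a change of -0.07 that did not pass the test. Whether these regulators have a part in the levels of the ribosomal proteins was not tested.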

How the data were processed

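RNA of 6 samples, 3 wild type and 3 pmr1 deletion by their titles, was hybridised to arrays after labelling from 100 ng of total RNA, per the labels' protocols. The deposited values of 10928 probe sets are log2 levels, which the authors made with GCOS, RMA and limma per the submitters' processing notes, with no versions given. RMA gives all arrays the same distribution of probe values and compresses folds. Which genome build the array was designed on is not stated, so coordinates are left out. Names came from the array's probe annotation and the gene table of assembly R64, which updated 12 symbols, 0 of them among the 54 genes.

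The test of deletion against wild type took the deposited log2 values as they stand. It used limma 3.58.1 (lmFit and eBayes, two-sided) under R 4.3.3, with p-values adjusted by Benjamini-Hochberg over 5498 S. cerevisiae probe sets for 5449 genes with a threshold of 0.05. For genes with several probe sets, that with the highest mean was used. The 1746 S. pombe, 213 control and 3470 unnamed probe sets and 1 with several symbols were left out. The fit was run on simulated data with independent errors for each probe set. Such data lack the shared shifts of arrays described above, so they do not test the counts against them. Python 3.11.15 and matplotlib 3.10.9 drew the figures.

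Alternatives were other scalings (median, quantile, cyclic loess), a trended and robust prior, array weights, a test of every probe set, a filter on dim ones, the removal of those matching several transcripts, the mean of a gene's probe sets, a replicate block and leaving out each array. For arrays no depth is given, and their number limits the precision. The labels give no batch.

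The genes and lists were chosen with earlier results of these data known, so no list is independent evidence, and no test of a list was made. Named are, in each subunit and direction, the 8 genes with the largest change among those past the threshold with separate arrays, the 2 largest not past it, ribosomal proteins chosen for their role, the 3 largest past the threshold in each related list, and PMR1. Exceptions are marked where they stand.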

Additional observations from a re-analysis of the deposited data

How the results depend on the processing

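Of 16 alternatives, each kept a median change below 0 for the 54 genes, and the difference of medians between the subunits moved by less than its spread between arrays. Adjusting over all 10928 probe sets of the array, which raises the number of tests, left 325 lower and 548 higher probe sets, 16 of the 54 genes lower (12 large, 4 small) and 5 of the 23 other ribosomal proteins. Array weights gave 1087 lower probe sets and 1 gene higher, RSM10 of the small subunit. Leaving out 1 array at a time gave 373 to 629 lower and 599 to 1041 higher probe sets, 21 to 40 of the 54 genes lower and 0 to 1 higher, 13 to 26 large subunit genes lower, 8 to 14 small subunit genes lower and 0 to 1 higher, and 6 to 16 of the other ribosomal proteins lower. The 1 higher gene came without wild-type replicate 2. RSM19 changed sign, to -0.0029 with quantile scaling, to -0.0025 with cyclic loess and within -0.0485 to 0.1108 without 1 array; the cause was not tested. The other alternatives left 40 to 47 genes lower. Scalings moved the median of all genes by less than 0.1.

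The labels do not say whether replicate numbers pair the samples. Deviations of same-numbered arrays correlated at -0.139, 0.0 and 0.08 over all genes and at 0.021, 0.118 and 0.305 over the 54. These correlations run across genes and do not register a shift that all genes of an array share. In both genotypes the median over the 54 genes was highest on replicate 2 and lowest on replicate 3. A pairing of the samples can thus not be told from these values. Leaving RPP1 out of the cytosolic list, an alternative chosen after seeing the data, changed neither count. A replicate block gave 45 of the 54 genes lower, with 570 lower and 805 higher probe sets. Over the alternatives, counts in the related lists were import 3 to 15 lower, respiratory subunits 3 to 10 higher and 0 to 2 lower, cytosolic ribosomal proteins 0 to 10 lower and 0 to 1 higher, activators 1 to 8 lower, synthetases 1 to 4, mitochondrial DNA genes 1 to 5, translation factors 3 to 5 and 0 to 1 higher, ribosome assembly 4 to 7, regulators 2 to 4 lower and 0 to 5 higher, a-cell genes 5 lower and 0 to 1 higher, and alpha-cell genes 1 to 3 higher. A set of 74 named genes, cell-type genes included, was followed through the alternatives. It holds RSM10, RSM19, MRPL36 and MRPS35, which were added to the naming rule's genes after their values were seen. Of the 74, 39 kept their direction and side of the threshold in all 16 alternatives. The call was lost in at least 1 by 24 and gained by 10, and 1 gene, RSM19, changed sign.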
